A study of Rattus norvegicus with 33 samples.

Results

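The basal and squamous epithelial genes described here are 10 genes chosen by name, with earlier results of these data known. Krt5, Krt14, Krt15 and Krt17 encode keratins of basal epithelial cells, and Tp63 encodes the p63 transcription factor of the same cells. Sfn, Ivl, S100a14, Gjb6 and Alox12e are linked to stratified or squamous epithelium. Sfn encodes 14-3-3 sigma, Ivl the cornified envelope precursor involucrin, S100a14 an S100 calcium-binding protein, Gjb6 connexin 30, and Alox12e an epidermal-type 12-lipoxygenase. The arrays carried 13 probes for the 10 members, and 9 of the 10 had a probe that passed the filter on dim signal, among 23150 genes tested. Ivl was not well above background on any of the 33 arrays and is the member without a test.

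Prostates of male Sprague-Dawley rats were profiled on 33 single-colour Agilent arrays, 1 RNA sample per array. Male pups were injected subcutaneously with estradiol benzoate (EB), an ester of estradiol, on each of postnatal days 1, 3 and 5 (PND, 2.5 mg/kg), or with vehicle alone. Implants were placed at PND 90, either empty or loaded with both testosterone and estradiol (T+E). The groups were EB+T+E at PND 100 (n = 3) and PND 145 (n = 3), and EB alone at PND 30 (n = 4), PND 100 (n = 3) and PND 145 (n = 4). They also included T+E alone at PND 100 (n = 3) and PND 145 (n = 3), and vehicle controls at PND 30 (n = 4), PND 100 (n = 3) and PND 145 (n = 3). At PND 30 no animal had yet received an implant, and at the later ages EB-only and control animals carried empty ones. All dams and pups were kept on a low-phytoestrogen diet. The sample labels call the tissue whole prostate, whereas the series title names the dorsolateral lobes. The protocols give 3 to 4 litters per group without tying arrays to litters, so p-values here rest on the spread between arrays, which may be partly technical.

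Between 61.5% and 68.9% of spots were well above background on each array, and no spot was saturated. As a check of the tissue, 14 of 15 luminal epithelial genes, Hoxb13 among them, were well above background on all 33 arrays. Some arrays stood apart. Replicate 3 of the PND 100 controls and replicate 2 of the PND 145 controls had the highest summed levels of 7 seminal vesicle genes, at 194 and 229 times the array's 75th percentile. The other adult control arrays ranged from 81.1 to 96.4. Replicates 2 and 3 of the EB PND 145 group had the highest mean levels of 4 urothelial genes in that group. Replicate 1 of the EB+T+E PND 100 group had the lowest summed level of luminal genes of all arrays, at 20.9. Where a member's call was lost without these arrays, its value without them is given, and the calls of the gene lists without them are counted at the end. Other tissue lists varied as well. Summed levels of 8 spermatid genes were 0.331, 1.14 and 69.0 in PND 145 controls and at most 0.139 in EB prostates of that age. All 8 were called in that comparison. Sums ranged from 9.27 to 394 for 4 ventral prostate products and from 3.72 to 223 for 8 skeletal muscle genes. The part of these tissues in the members' values was not tested.

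In the normal rodent prostate, secretory luminal cells are bordered by a discontinuous layer of basal cells that express p63 and the basal keratins. p63 maintains the basal layer in many epithelia, and the keratins form its intermediate filaments. Exposure of the prostate to estrogens is known to favour basal cell hyperplasia and squamous metaplasia, in which stratified and cornifying epithelial programmes appear. A rise of the basal genes, of the squamous genes or of both can therefore be looked for separately.

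Levels are given as log2 of the background-subtracted signal relative to the array's 75th percentile, so 0 stands for a signal equal to that percentile. A difference of 1 in level is a 2-fold difference in signal. Levels of different probes are not comparable with each other. A gene was called changed at a Benjamini-Hochberg adjusted p under 0.05 over all 23150 genes, in a limma fit of all 10 groups. In bulk tissue a smaller number of cells of a type and less RNA per cell cannot be told apart.

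Promoter windows from RefSeq (build GRCr8, 250 bases before the start site) were matched for 7 of the 10 members, in 8 windows, since Gjb6 has a pair of start sites. They are shown for S100a14 and Alox12e, the 2 members called in EB prostates, and for Krt5, a basal keratin that was not called in any comparison. Letters in capitals mark the only motif found among those searched.

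S100a14 promoter, chr2:178305726-178305975, plus strand: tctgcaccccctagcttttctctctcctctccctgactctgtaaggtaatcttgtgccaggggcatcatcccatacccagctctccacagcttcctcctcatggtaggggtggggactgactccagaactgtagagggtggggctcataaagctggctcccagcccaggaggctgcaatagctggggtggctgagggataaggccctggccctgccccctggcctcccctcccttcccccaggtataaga
Alox12e promoter, chr10:55540510-55540759, minus strand: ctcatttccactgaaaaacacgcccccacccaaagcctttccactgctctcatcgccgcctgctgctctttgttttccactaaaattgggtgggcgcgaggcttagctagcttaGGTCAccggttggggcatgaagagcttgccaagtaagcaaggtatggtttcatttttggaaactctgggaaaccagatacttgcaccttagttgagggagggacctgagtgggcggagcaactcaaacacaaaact
Krt5 promoter, chr7:134730570-134730819, minus strand: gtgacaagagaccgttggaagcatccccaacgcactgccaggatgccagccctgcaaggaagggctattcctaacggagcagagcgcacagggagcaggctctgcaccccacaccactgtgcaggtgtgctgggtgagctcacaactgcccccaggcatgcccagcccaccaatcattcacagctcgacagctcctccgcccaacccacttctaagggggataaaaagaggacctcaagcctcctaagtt

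Both strands of all 33469 promoter windows were searched. The full estrogen response element, GGTCA followed after any 3 bases by TGACC, was in 0.02% of them and in none of the members' windows. The half-site GGTCA alone, on either strand, was in 35.42% of all windows and in those of 4 members, namely Alox12e, Gjb6, Ivl and Tp63. In the Alox12e window it began 136 bases before the start site. The AP-1 motif TGANTCA was in 6.34% of windows and in that of Sfn. The TATA motif TATAAA was in 12.93% of windows and in none of the members' windows. The half-site also occurs inside the full element. GC content was 60.0% for S100a14, 50.8% for Alox12e and 59.2% for Krt5, against a median of 51.2% over all windows.

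The values of the 6 probes on which most results turn come from the following 60-base probes, of which 30 bases each are shown, with positions on build rn4 as the array files give them. The 2 Tp63 probes are shown because they gave different results, and the capitals mark a run of CAG repeats in one of them.

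S100a14, chr2:182800668-182800727, plus strand: aacttccataactactctgtggagggtaaa
Alox12e, chr10:57160071-57160130, minus strand: gcttgtttactcttgaattcccattaccta
Gjb6, chr15:36177768-36177827, minus strand: aagtgagaccctctctaaaattagcctttc
Krt15, chr10:89072179-89072238, minus strand: ggcggtggcagcaatttccacatcagcgtg
Tp63, transcript variant 3, chr11:76923148-76923207, minus strand: acagGCAGCAGCAGCAGCAGCAGCAccaac
Tp63, 3′ end of the reference transcript, chr11:76900889-76900948, minus strand: ataggaagcaggagtctccttgttagtcca

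S100a14 and Alox12e were the members whose signal rose after neonatal EB, while the basal keratins and Tp63 did not rise in any comparison with controls. S100a14 rose in EB+T+E prostates at PND 100 and PND 145 and in EB prostates at PND 145. With 1 array left out, its call was lost in 4 of 6 fits for EB+T+E at PND 100. For EB at PND 145 it was lost in 5 of 7. Alox12e rose at PND 145 in EB+T+E and in EB prostates. Its call in EB prostates was lost with any single array of the groups compared left out. S100a14 encodes a small EF-hand protein found in many epithelia, and the Alox12e product oxygenates arachidonic acid in epidermis. Of the called differences from controls, the largest were those in EB+T+E prostates at PND 145, of 10.9-fold for S100a14 and 10.5-fold for Alox12e. Both genes were read from 1 spot per array, well above background on all 33 arrays. S100a14 was dim in controls, at −6.42 to −5.32.

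S100a14 levels in EB+T+E prostates at PND 145 were −3.13, −2.35 and −3.09, against −6.14, −6.42 and −6.35 in controls. All 3 EB+T+E arrays lay above all 3 control arrays. The difference was 3.45 ± 0.59 (log2, SE, adjusted p = 9.92e-05). At this age 35.4% of all tested genes were called, 14.7% higher and 20.7% lower, and 3 of the 9 measured members, of which 2 rose and 1 fell. Groups higher without overlap made up 20.7% of all genes. Alox12e levels were 0.13, 0.23 and −1.72 in EB+T+E prostates, against −3.37, −4.14 and −4.02 in controls. The groups did not overlap, and replicate 3 of EB+T+E was the lowest of its group. The difference was 3.39 ± 0.69 (adjusted p = 5.63e-04).

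In EB prostates at PND 145, S100a14 levels were −4.64, −3.03, −3.23 and −4.69, against −6.14, −6.42 and −6.35 in controls. Every EB array was above every control array, and replicates 2 and 3 were the highest. The difference was 2.40 ± 0.55 (5.29-fold, adjusted p = 0.0398). Alox12e levels were −1.55, −0.26, −0.64 and −1.96 in EB prostates, against −3.37, −4.14 and −4.02 in controls. Again the groups did not overlap and replicates 2 and 3 were highest. The difference was 2.74 ± 0.64 (6.69-fold, adjusted p = 0.0438). These 2 members were the only ones called in this comparison, in which 0.57% of all genes were called and 0.194% were called higher.

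Both EB calls at PND 145 were close to the threshold. Each of the 7 arrays of these groups was left out in turn. The Alox12e call was lost in all 7 fits (adjusted p = 0.0561 to 0.272). The S100a14 call was lost in 5 of them (adjusted p = 0.0457 to 0.235 over the 7 fits). Without replicates 2 and 3 of the EB group the differences were 1.64 for S100a14 (adjusted p = 0.582) and 2.09 for Alox12e (adjusted p = 0.542). Without replicate 2 of the controls they were 2.34 (adjusted p = 0.235) and 2.59 (adjusted p = 0.272). The 2 slides that held both groups gave differences of 3.39 and 3.11 for S100a14 and of 3.88 and 3.38 for Alox12e. Their EB arrays were the same replicates 2 and 3, so the EB side of these values rests wholly on arrays that stood apart. The control of 1 of the slides was replicate 2, which also stood apart, and that of the other was replicate 3. Mean levels of the 4 measured urothelial genes (of 5 listed) were −3.09, −1.83, 0.61 and −2.70 in replicates 1 to 4 of EB, against −3.10, −3.44 and −3.30 in controls. Their summed signal ranged from 3.27 to 10.2 times the 75th percentile in EB prostates and from 4.34 to 7.21 in controls. None of the 4 was called, with Upk2 (uroplakin 2) at 2.36 ± 0.97 (adjusted p = 0.248). Their part in the result was not tested.

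At PND 100, S100a14 levels in EB+T+E prostates were −4.75, −2.65 and −4.14, against −5.82, −5.91 and −5.36 in controls. The groups did not overlap, and the difference of 1.85 ± 0.59 passed the test (3.61-fold, adjusted p = 0.0388). S100a14 was the only member called, where 12.6% of all genes were called. Genes called higher made up 5.4% and genes higher without overlap 11.2%. The adjusted p was 0.184 without replicate 2 of EB+T+E, 0.110 without replicate 1 or replicate 2 of the controls and 0.0621 without their replicate 3. In EB prostates the levels were −4.14, −4.55 and −3.38, also above all controls. That difference of 1.67 ± 0.59 did not pass (adjusted p = 0.0983). No member was called in EB prostates at PND 100, where 2.69% of all genes were called and 11.5% were higher without overlap.

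Alox12e at PND 100 had levels of −4.64, −3.36 and −2.05 in EB+T+E prostates and −3.28, −1.83 and −0.52 in EB prostates, against −3.78, −3.71 and −3.43 in controls. The EB+T+E arrays spanned the control range, with a difference of 0.29, whereas all EB arrays lay above it. The EB difference of 1.77 ± 0.69 did not pass (adjusted p = 0.130). The rise of Alox12e in EB+T+E prostates was larger at PND 145 than at PND 100 by 3.10 ± 0.97, and this test of the difference between ages did not pass either (adjusted p = 0.166), where 0.289% of all genes were called.

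At PND 30, before any implant, S100a14 levels were −4.66, −3.45, −4.76 and −3.73 in EB prostates, against −5.46, −5.33, −5.32 and −6.25 in controls. Every EB array was above every control array, but the difference of 1.44 ± 0.51 did not pass (adjusted p = 0.258). Groups that did not overlap and were higher in EB made up 1.89% of all genes at this age, and 0.0475% of all genes were called. Alox12e levels were −2.41, −1.76, −2.48 and −0.96 in EB prostates, against −1.13, −0.92, −1.51 and −1.66 in controls. These groups overlapped, with a difference of −0.60 ± 0.60.

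Across all ages, the 17 arrays of EB or EB+T+E prostates had S100a14 levels of −4.76 to −2.35 and the 10 control arrays −6.42 to −5.32. All 17 were above the highest control. The share of all genes divided in this way was not counted, and ages and treatments are pooled here. Of the 6 T+E arrays, 5 lay below the lowest array with EB. The exception was replicate 2 of T+E at PND 145, at −3.81, where the other 2 arrays of that group were at −6.40 and −6.59. No other measured member showed such a division. For Alox12e, controls at PND 30 were as high as many EB arrays, and the lowest array with EB, at −4.64, was below every control. The EB difference of S100a14 changed between ages by 0.23 ± 0.78 for PND 100 against PND 30 and by 0.74 ± 0.81 for PND 145 against PND 100. Neither was called, where 0.0216% and 0% of all genes were.

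**Figure D1:**
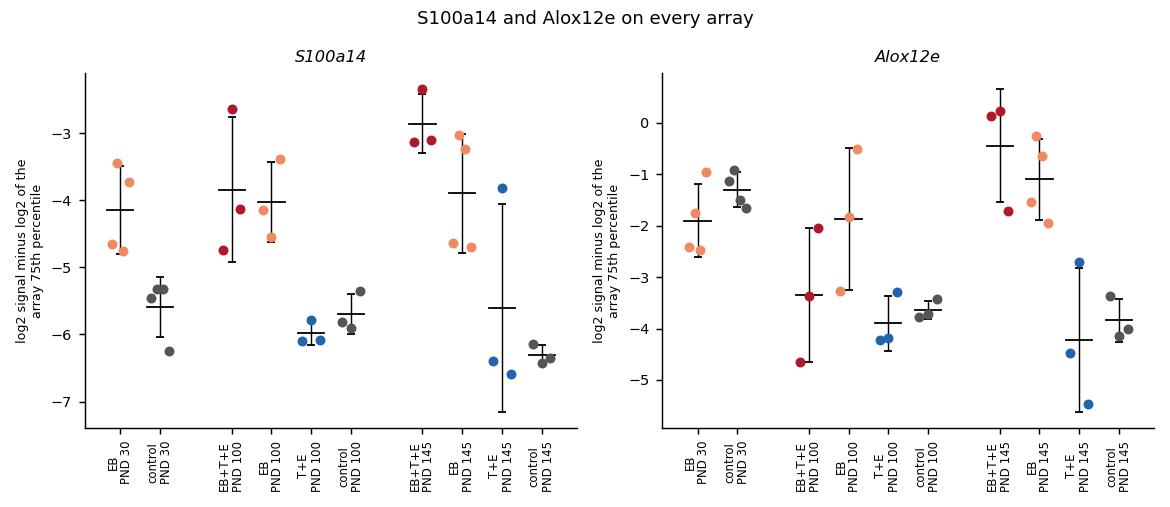
Levels of S100a14 and Alox12e on each array (log2 signal relative to the array's 75th percentile) by treatment and age, with group means and SD. Filled points are well above background. All 17 S100a14 points of groups with EB lie above the 10 control points, and Alox12e is highest in EB+T+E prostates at PND 145.

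Against T+E alone, EB+T+E prostates had higher S100a14 at both ages and higher Alox12e at PND 145. At PND 145 T+E levels were −6.40, −3.81 and −6.59 for S100a14 and −4.48, −2.71 and −5.47 for Alox12e. In both genes replicate 2 was the highest T+E array, and every EB+T+E array was above it. The differences were 2.74 ± 0.59 for S100a14 (adjusted p = 0.00174) and 3.77 ± 0.69 for Alox12e (13.6-fold, adjusted p = 4.21e-04). These were the 2 members called, where 21.4% of all genes were, with 9.68% called higher and 17.3% higher without overlap.

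At PND 100 the T+E levels of S100a14 were −6.09, −5.78 and −6.08, below those of all EB+T+E arrays. The difference of 2.14 ± 0.59 passed (adjusted p = 0.0398), and S100a14 was the only member called where 3.98% of all genes were. Genes called higher made up 2.64% and genes higher without overlap 9.94%. Leaving out any single array of these groups other than replicate 3 of EB+T+E gave an adjusted p of 0.0835 to 0.164. No member was called for T+E alone against control. At PND 100 0.181% and at PND 145 0.384% of all genes were called in that comparison. S100a14 differed there by −0.29 at PND 100 and by 0.70 ± 0.59 at PND 145.

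EB+T+E against EB alone gave no call for either gene, and at PND 100 none for any member, where 1.71% of all genes were called. S100a14 was higher by 1.04 ± 0.55 at PND 145 (adjusted p = 0.171) and Alox12e by 0.65. At PND 100 Alox12e was lower by 1.48 on the log2 scale (difference −1.48 ± 0.69, adjusted p = 0.290). The interaction of EB with T+E was not called for any member at either age, with 0% of all genes called at PND 100 and 0.769% at PND 145. The T+E difference between ages was not called for any member either, where 0.0259% of all genes were.

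Gjb6, the gap junction protein connexin 30 of stratified epithelia and cochlea, had its highest group mean in EB prostates at PND 145. The levels were −3.45, −4.78, −3.33 and −4.04, against −7.07, −5.86 and −6.06 in controls, where 2 of the 3 arrays were well above background. The groups did not overlap, and the difference of 2.43 ± 0.82 did not pass (adjusted p = 0.159). Higher groups without overlap made up 8.82% of all genes and held 3 of the 9 members, S100a14, Alox12e and Gjb6.

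The Gjb6 signal at PND 145 was lower with EB and T+E implants together than with EB alone. In EB+T+E prostates the levels were −8.29, −7.60 and −7.86, none of them well above background. Against the EB group Gjb6 fell by at least 11.6-fold (adjusted p = 0.00101), where 23% of all genes were called. Genes called lower made up 12.4% of all and genes lower without overlap 17.5%. Against controls the bound was at least 2.15-fold lower and the test did not pass (adjusted p = 0.158). T+E alone also gave no array above background, with levels of −7.08, −8.89 and −9.41 at PND 100 and −7.18, −7.48 and −7.93 at PND 145. The bounds on the difference of group means from controls were 3.45-fold lower at PND 100 (adjusted p = 0.175) and 1.62-fold lower at PND 145 (adjusted p = 0.75). Neither test passed, so no fall is claimed.

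Gjb6 in EB+T+E prostates at PND 100 was spread over −5.52, −2.75 and −8.86, with 2 of the 3 arrays above background. The controls of that age were at −5.44, −5.44 and −5.48. Replicate 2 was above every control, and replicates 1 and 3 were below every control, replicate 1 only slightly. Since no T+E array was above background at either age, no size is given for the interaction of EB with T+E for Gjb6.

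Sfn, an epithelial cell cycle regulator, was not called in any comparison. In EB+T+E prostates at PND 145 its levels were −2.10, −1.61 and −2.46, against −2.96, −3.32 and −3.68 in controls. The groups did not overlap, with a difference of 1.26 ± 0.65 (adjusted p = 0.128). In EB prostates at PND 145 Sfn was at −3.36, −0.97, −1.54 and −3.53. Replicates 2 and 3 were again the highest, and the difference was 0.97 ± 0.60 (adjusted p = 0.463).

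**Figure D2:**
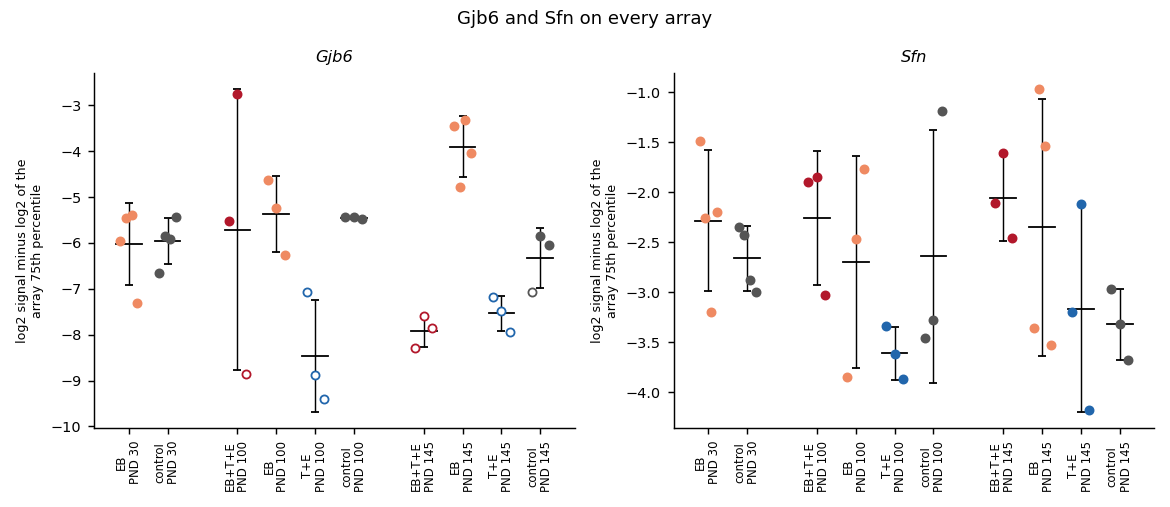
Levels of Gjb6 and Sfn on each array (log2 signal relative to the array's 75th percentile) by treatment and age, with group means and SD. Open points are not well above background. Gjb6 has its highest mean in EB prostates at PND 145 and is open in all T+E arrays and in all EB+T+E arrays at PND 145, and Sfn levels overlap between most groups.

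None of the basal keratins nor Tp63 rose after any treatment. Krt15, a keratin of basal progenitor cells in several epithelia, fell in EB+T+E prostates at PND 145, and the others had no call by the probe used for the gene. At PND 145 Krt15 levels were 1.24, 1.88 and 1.40 in EB+T+E prostates, 2.78, 3.59, 3.06 and 2.51 in EB prostates, and 3.45, 2.81 and 2.59 in controls. All 3 EB+T+E arrays were below every EB and every control array. The difference was −1.44 ± 0.42 against controls (2.71-fold lower, adjusted p = 0.00985) and −1.48 ± 0.39 against EB (adjusted p = 0.00785). Lower groups without overlap made up 31.8% of all genes against controls, and the median of all genes was −0.24 in that comparison.

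The Krt15 call against controls was lost under quantile scaling, at −1.09 (adjusted p = 0.0536), and without replicate 1 of the controls, at −1.19 (adjusted p = 0.0549). The call against EB was lost without replicates 2 and 3 of the EB group, at −1.14 (adjusted p = 0.0917), and without replicate 1 of EB+T+E, at −1.34 (adjusted p = 0.0501). T+E alone gave Krt15 levels of 2.28, 2.60 and 1.73 at PND 145 and 1.88, 1.58 and 2.28 at PND 100. At PND 100 these were below all controls, at 3.69, 2.68 and 2.49, and the difference of −1.04 ± 0.42 did not pass (adjusted p = 0.424). In this comparison 5 members were lower without overlap, where 11% of all genes were. They were Krt5, Krt14, Krt15, Krt17 and Gjb6, and none of them was called.

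Krt5, Krt14 and Krt17 are the keratins of the basal layer, the first pairing with the second in filaments, while Krt17 is also known from activated and wounded epithelium. Krt5 levels in EB+T+E prostates at PND 145 were −2.13, −1.19 and −1.51 and in EB prostates −0.54, −0.07, −0.82 and −0.92, against −0.36, −1.24 and −1.37 in controls. The EB+T+E arrays overlapped the controls and lay below all EB arrays. Against EB the differences were −1.03 ± 0.41 for Krt5 (adjusted p = 0.0689) and −0.90 ± 0.37 for Krt14 (adjusted p = 0.0771). Neither passed.

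The 5 basal members together had a median difference of 0.40 in EB prostates at PND 145, from 0.04 to 0.69, with none called. The median of all genes was −0.01. At PND 30 the basal median was −0.73, from −0.97 to −0.52, where the median of all genes was −0.14, and none was called. Krt15 had the largest of these differences at PND 30, with levels of 3.63, 3.26, 2.76 and 2.64 in EB prostates, against 3.95, 3.35, 4.73 and 4.14 in controls. The groups overlapped, at −0.97 ± 0.36 (adjusted p = 0.284). At PND 100 the basal median was −0.25 in EB prostates, from −0.47 to 0.18, with none called.

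Replicate 1 of EB+T+E at PND 100 was the lowest of all 33 arrays for all 4 basal keratins and for the 3′ probe of Tp63. It was at −3.18 for Krt5, −2.25 for Krt14, 1.23 for Krt15, −4.58 for Krt17 and −3.27 for that probe. The other 2 arrays of its group were at −0.77 and −0.62 for Krt5, −0.33 and −0.45 for Krt14, and −2.09 and −1.97 for Krt17. Those values were above the controls of that age for Krt5 and within their range for Krt14 and Krt17. Each of these 3 keratins had 10 spots per array, with a median SD between spots of 0.07 for Krt5. The SD of Krt5 between the arrays of this group was 1.43.

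**Figure D3:**
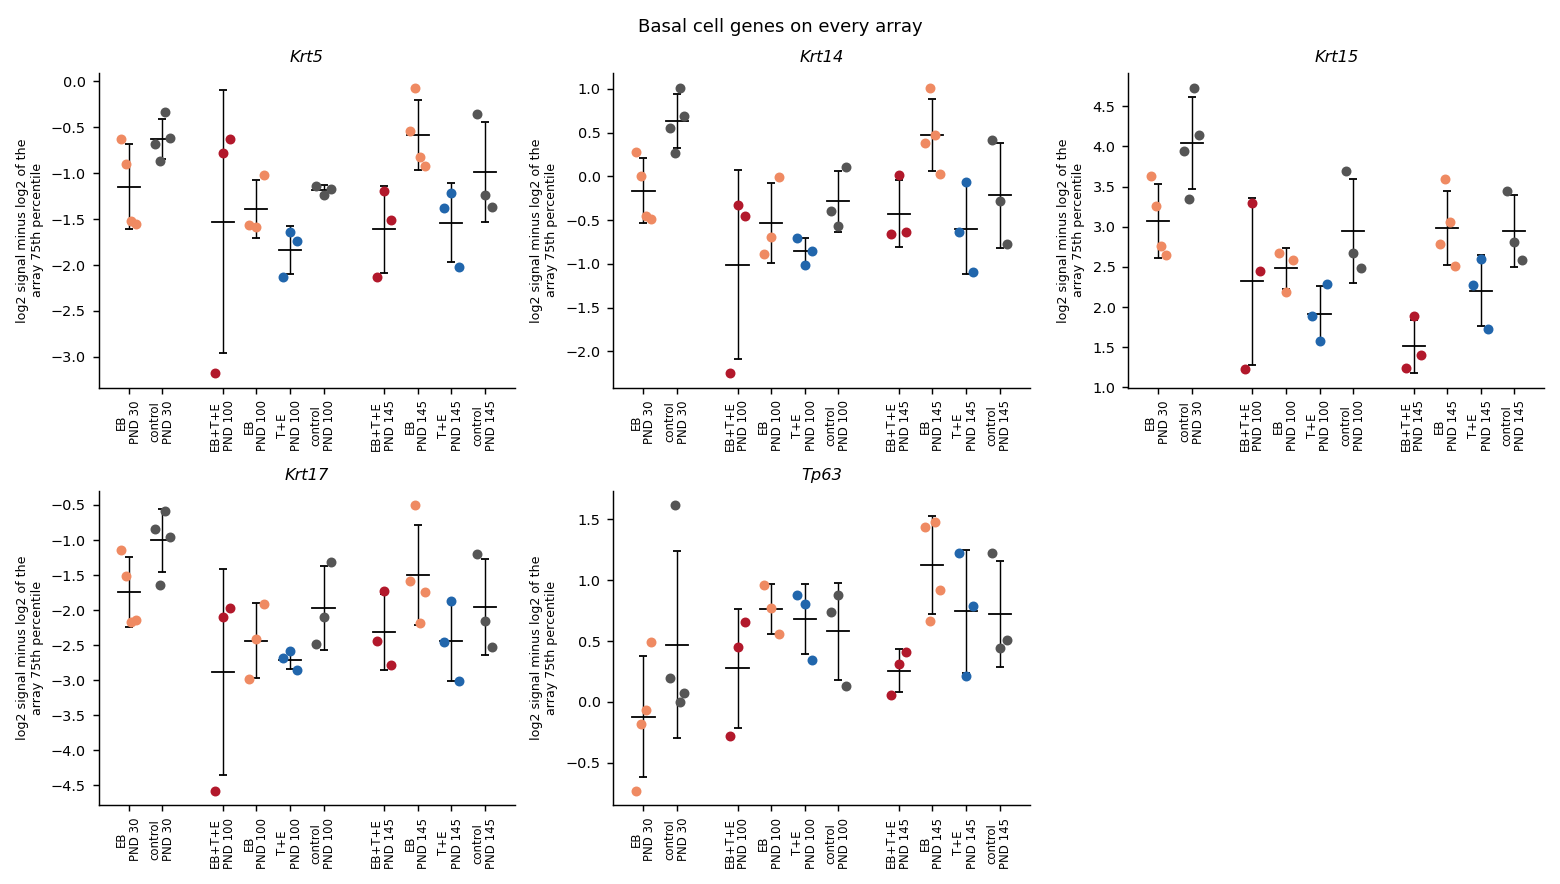
Levels of Krt5, Krt14, Krt15, Krt17 and Tp63 on each array (log2 signal relative to the array's 75th percentile) by treatment and age, with group means and SD. Krt15 in EB+T+E prostates at PND 145 lies below the controls, and replicate 1 of EB+T+E at PND 100 is the lowest array for the 4 keratins.

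Tp63 gave different answers from its probes. The brighter probe, annotated to transcript variant 3, had levels of 0.06, 0.31 and 0.41 in EB+T+E prostates at PND 145, against 1.22, 0.44 and 0.51 in controls. These did not overlap, but the difference of −0.47 ± 0.37 did not pass (adjusted p = 0.336). The probe at the 3′ end of the reference transcript had levels of −2.16, −1.75 and −1.63 in EB+T+E prostates and −0.30, −0.51, −0.68 and −0.39 in EB prostates, against −0.32, −0.91 and −0.88 in controls. All 3 EB+T+E arrays were below all other arrays of that age.

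In a fit of all 30537 probes, the 3′ probe fell in EB+T+E prostates at PND 145 by 1.14 on the log2 scale against controls (difference −1.14 ± 0.37, adjusted p = 0.0179). Against EB its difference was −1.38 ± 0.34 (adjusted p = 0.00532), where that of the variant 3 probe was −0.87 (adjusted p = 0.0694). At PND 100 the 3′ probe of Tp63 differed from controls by −1.07 ± 0.37 (adjusted p = 0.0553) and the variant 3 probe by −0.31. Without replicate 1 of EB+T+E these differences were −0.32 (adjusted p = 0.569) and −0.03. The difference between the probes was not tested. The remaining probe, for a predicted variant, was well above background on 2 arrays and was not used. The variant 3 probe is named by its annotation only. Whether it is particular to that variant, or its CAG repeat binds other transcripts, was not tested.

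**Figure D4:**
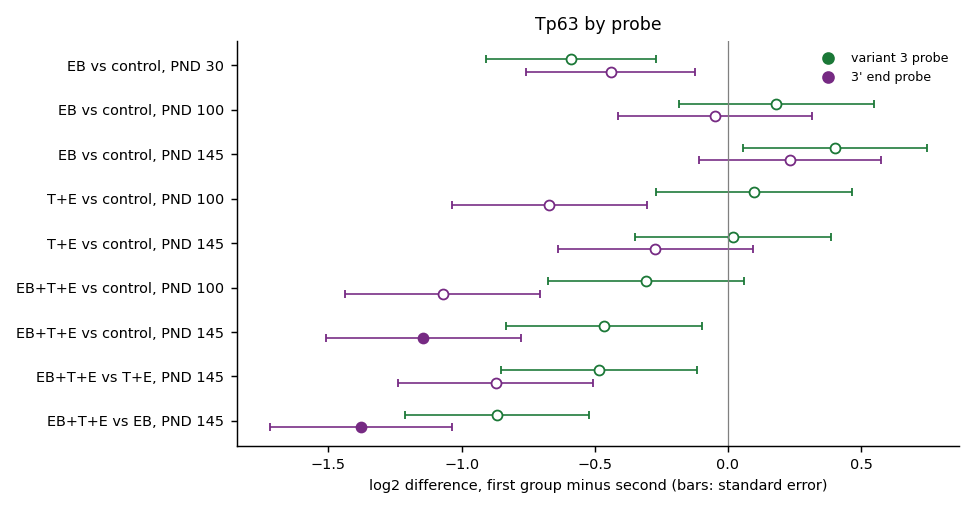
Differences of the variant 3 probe and the 3′ probe of Tp63 in 9 comparisons (log2, bars are SE), with filled points for an adjusted p under 0.05. The 3′ probe is lower in EB+T+E prostates at PND 145 against controls and against EB, and no point of the variant 3 probe is filled.

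In control prostates no member was called between ages. Alox12e was lower at PND 100 than at PND 30, with levels of −3.78, −3.71 and −3.43 at PND 100 and −1.13, −0.92, −1.51 and −1.66 at PND 30. The groups did not overlap, and the difference of −2.34 ± 0.64 was just outside the threshold (adjusted p = 0.0514), where 2.25% of all genes were called and 12.3% were lower without overlap. Krt14 and Krt15 were lower by 0.92 and 1.09 on the log2 scale, without a call (adjusted p = 0.233 and 0.167). With only the groups compared in the fit, Alox12e had an adjusted p of 0.00161 and Krt14 of 0.0423. Between PND 100 and PND 145 no gene of all 23150 (0%) was called by limma, and 569 had an unadjusted p under 0.05.

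Among themselves, Krt5, Krt14 and Krt17 varied together over the 33 arrays once group means were removed, with r of 0.879 to 0.932. Krt15 followed them at 0.644 to 0.777. For Tp63 the value depended on the probe. The variant 3 probe had an r of −0.17 to 0.07 with the 4 keratins and the 3′ probe of 0.621 to 0.848. Without replicate 1 of EB+T+E at PND 100 the ranges were −0.493 to −0.253 for the variant 3 probe and 0.395 to 0.595 for the 3′ probe, and 0.475 to 0.886 among the 4 keratins. S100a14 had an r of 0.657 with Alox12e and of 0.626 with Sfn over all arrays. These are descriptions over arrays that share groups and tissue.

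Over 12645 well-measured genes, those most like Krt5 in this sense were Krt6c (0.904), Tmprss2 (0.875), Galnt6 (0.854), Pard3 (0.839) and Ehf (0.806). Those most like S100a14 were Krt7 (0.796), Anxa8 (0.778), Pkp1 (0.770), Klhdc8a (0.760) and Ugt1a6 (0.748). Krt7 is a simple-epithelial keratin, Anxa8 an annexin, and Pkp1 a desmosomal plaque protein of stratified epithelium.

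**Figure D5:**
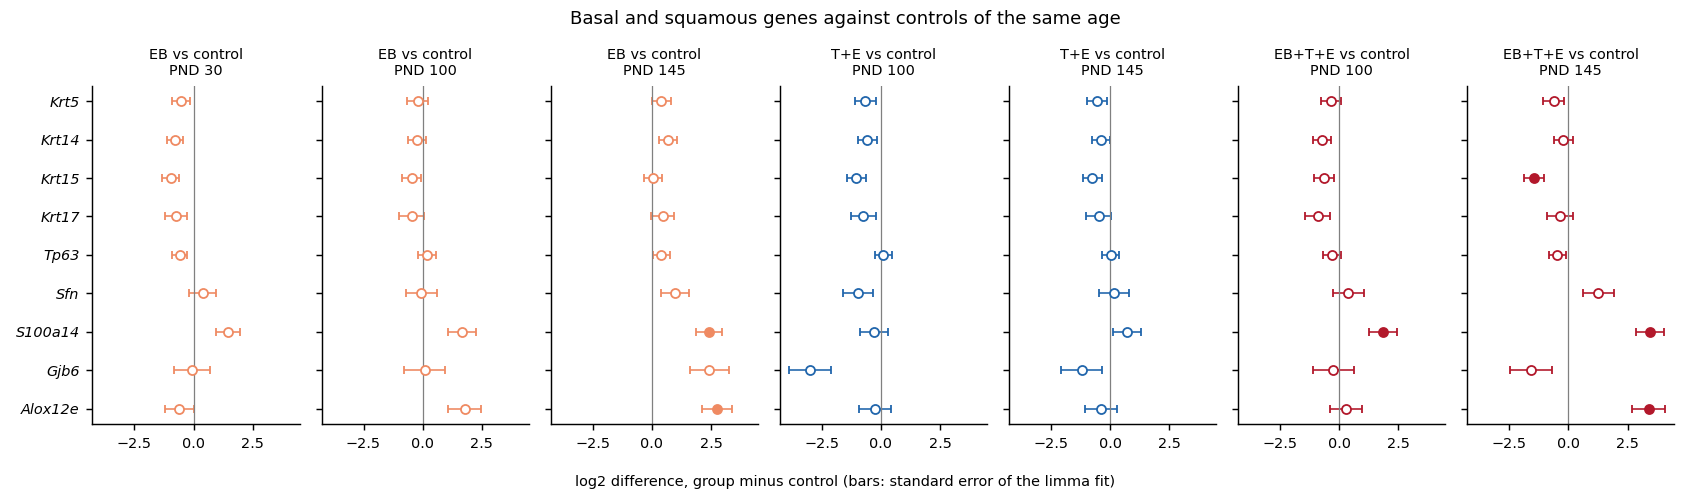
Log2 differences of the 9 measured members in 7 comparisons with controls (bars are SE), with filled points for an adjusted p under 0.05. S100a14 is filled in EB+T+E at both ages and in EB at PND 145, Alox12e in both at PND 145, and Krt15 in EB+T+E at PND 145. Gjb6 points for T+E at both ages and for EB+T+E at PND 145 rest on groups with no array well above background.

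Other genes of the basal and squamous programmes were read from lists of names. Of 14 measured basal genes outside the members (of 16 listed), none was called after EB alone or T+E alone. In EB+T+E prostates 1 rose and 1 fell at PND 100, where 12.6% of all genes were called, and 3 rose and 2 fell at PND 145, where 35.4% were. The shares of the list called were close to those of all genes. Dlk2, a Notch-pathway ligand-like protein, fell at both ages, at −1.63 ± 0.35 (adjusted p = 0.00436) and −1.97 ± 0.35 (adjusted p = 1.59e-04). Pdpn (podoplanin, also made by fibroblasts and lymphatic endothelium) rose at both, at 2.39 ± 0.53 (adjusted p = 0.00483) and 1.76 ± 0.53 (adjusted p = 0.0119). At PND 145 Ngfr rose by 2.32 (adjusted p = 0.0384) and Trim29 fell (difference −2.17, adjusted p = 0.0395). Snai2, named after its value was seen to complete the count, rose by 1.15 ± 0.43 (adjusted p = 0.0397). The list's median difference at PND 145 was 0.41, against −0.24 over all genes.

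Of 10 hemidesmosome genes, which anchor basal cells to the basement membrane, Itgb4 (integrin beta 4) rose in EB prostates at PND 100 by 1.38 ± 0.34 (adjusted p = 0.0363). It also rose in EB+T+E prostates, by 1.34 ± 0.34 at PND 100 (adjusted p = 0.0124) and 1.70 ± 0.34 at PND 145 (adjusted p = 5.80e-04). In EB prostates at PND 145 it was at 0.97 ± 0.32 without a call (adjusted p = 0.155). Cd151, a tetraspanin partner of integrins, fell in EB prostates at PND 100 (difference −0.69 ± 0.19, adjusted p = 0.0456). Col17a1 rose by 0.97 ± 0.34 and Cd151 fell (difference −0.49 ± 0.19) in EB+T+E prostates at PND 145 (adjusted p = 0.0286 and 0.0447). The counts were 1 up and 1 down in EB at PND 100, and in EB+T+E 2 up and none down at PND 100 and 3 up and 1 down at PND 145. Of all genes, 2.69% were called in EB at PND 100, and in EB+T+E 12.6% at PND 100 and 35.4% at PND 145.

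Among 7 measured desmosome genes (of 10 listed), Pkp1 rose in EB+T+E prostates at PND 145 by 1.14 ± 0.44 (adjusted p = 0.0452), while Dsc2 and Pkp3 fell (differences −1.34 and −1.47, adjusted p = 0.0429 and 0.0476). Dsc2 was the only one called at PND 100, at −1.87 ± 0.51 (adjusted p = 0.0181). Of all genes, 12.6% were called in EB+T+E prostates at PND 100 and 35.4% at PND 145. After EB alone or T+E alone no desmosome gene was called.

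Of 25 measured squamous genes outside the members (of 26 listed), none was called after EB alone or T+E alone, and in EB+T+E prostates 3 rose and none fell at PND 100. At PND 145 3 rose and 2 fell. These shares were at or below the 12.6% and 35.4% of all genes called at the 2 ages. Gjb2 (connexin 26) rose by 3.20 ± 0.87 at PND 100 and 4.42 ± 0.87 at PND 145 (adjusted p = 0.0167 and 4.09e-04). Klf4, a transcription factor of epithelial differentiation, rose by 0.77 and 1.06 (adjusted p = 0.0389 and 0.00175). Scel (sciellin) rose at least 7.51-fold at PND 100 (adjusted p = 0.0193). Ly6d rose at PND 145 by 6.05 ± 1.46 (adjusted p = 0.00266), and Cst6 fell (difference −1.93, adjusted p = 0.0197). Sprr3, named after its value was seen to complete the count, fell by at least 3.33-fold (adjusted p = 0.0377). Ly6d belongs to a multigene family, so its probe may bind relatives.

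Genes of the cornified layer were measured for 11 of 20 listed. Dmkn rose in EB+T+E prostates at PND 100 by 3.00 ± 0.87 and at PND 145 by 2.57 ± 0.87 (adjusted p = 0.0244 at both). Abca12, a lipid transporter of the epidermis, rose at PND 145 by 3.46 ± 0.94 (adjusted p = 0.00650), whereas Krt10 fell (difference −1.05 ± 0.20, adjusted p = 3.04e-04). Rptn also passed, but was well above background on 1 EB+T+E array and on no control array. Their counts were 1 up and none down at PND 100, and 3 up and 1 down at PND 145, shares close to the 12.6% and 35.4% of all genes called. After EB alone none of the 11 was called at any age.

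The families of the 2 members that rose gave further calls. Of 12 other S100 genes, 6 rose in EB+T+E prostates at PND 100 and 9 at PND 145, with none lower. Of all genes, 5.4% were called higher there at PND 100 and 14.7% at PND 145. S100a11 rose by 2.39 ± 0.49 (adjusted p = 5.78e-04) and S100a4 by 2.71 ± 0.69 (adjusted p = 0.00423) at PND 145, and S100a8, a neutrophil and keratinocyte product, rose at least 45.0-fold (adjusted p = 8.64e-04). S100a9 rose by 7.51 ± 1.53 (adjusted p = 5.88e-04). At PND 100 S100a10 rose by 1.35 ± 0.21 in EB+T+E prostates (adjusted p = 7.31e-04) and by 0.99 ± 0.21 in T+E prostates (adjusted p = 0.0496), its only call there among the 12. In EB prostates none of the 12 was called at any age. Of 5 lipoxygenase genes, 2 rose at PND 100 and 3 at PND 145 in EB+T+E prostates. They were Alox5 (2.45 and 2.64), its activating protein Alox5ap (2.37 and 2.56) and, at PND 145, Alox12 (1.46, adjusted p = 0.0415). None was called after EB alone.

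Immune cell genes moved in the same comparisons. Of 14 immune genes, 14 rose in EB+T+E prostates at PND 145 and 8 at PND 100, and 8 rose in EB prostates at PND 100. Of all genes, 14.7%, 5.4% and 1.81% were called higher in these comparisons, in that order. The summed level of the immune genes was 27.6 to 67.5 in EB+T+E prostates at PND 145 and 1.76 to 2.90 in controls. In EB prostates of that age, where none was called, it was 2.72 to 4.81. Jchain, an immunoglobulin joining chain of plasma cells, rose by 9.30 ± 0.90 in EB+T+E prostates at PND 145 (adjusted p = 1.90e-07). Luminal genes had 6 of 15 lower and 2 higher in EB+T+E prostates at PND 145. Of all genes, 20.7% were called lower and 14.7% higher in that comparison. There Foxa1 fell (difference −1.55, adjusted p = 0.00952), and Krt7 and Tmprss2 rose by 3.13 and 1.54 (adjusted p = 0.0241 and 0.0282). Of the 4 urothelial genes, Upk1a fell (difference −4.07 ± 0.51, adjusted p = 3.87e-06) and none rose. The part of these cell types in the members' values was not tested.

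Many list calls at PND 100 depended on single arrays. Without replicate 1 of EB+T+E at PND 100, 699 of all genes were called there (3.02%) against 2923 with it. S100a14 was still called, at 2.30 ± 0.64 (adjusted p = 0.0465). Of the list genes, Scel and S100a10 were still called, while Gjb2 was at 2.25 (adjusted p = 0.173), Dsc2 at −0.88 (adjusted p = 0.224) and Klf4 at 0.41 (adjusted p = 0.364). Dlk2, Pdpn, Itgb4 and Dmkn had an adjusted p of 0.0548, 0.0516, 0.0924 and 0.0888. None of the 14 basal, 7 desmosome, 11 cornified-layer and 5 lipoxygenase genes was then called, against 2, 1, 1 and 2 with it. Of the 12 S100 genes 4 were called and of the 14 immune genes 6.

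Without the 2 control arrays high in seminal vesicle genes, both hemidesmosome calls in EB prostates at PND 100 were lost, with Itgb4 at 1.36 (adjusted p = 0.106), and 3 of the 8 immune calls remained. S100a10 in T+E prostates then had an adjusted p of 0.105. For EB+T+E at PND 100, 1 of the 3 squamous calls remained and the desmosome call was lost, whereas both basal calls and the cornified-layer call remained. The calls that remained in EB+T+E prostates at PND 145 were 2 of 5 for the basal list, 1 of 4 for hemidesmosomes, 0 of 3 for desmosomes, 4 of 5 for squamous genes, 3 of 4 for the cornified layer, 6 of 9 for S100 genes, 1 of 8 for luminal genes and 14 of 14 for immune genes.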

How the data were processed

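Total RNA of 33 rat prostates was hybridised to single-colour Agilent arrays (design 074036, grid build rn4). Per the file headers, Feature Extraction 12.0.0.7 read the images under protocol GE1_1200_Jun14. The deposited processed signals are fluorescence intensities from which the background was already subtracted, without scaling across arrays. A value table deposited by the authors gives linear intensities, uncentred, with column medians of 30.8 to 49.9 and a log correlation with the scanner values of at least 0.999982. How it was computed is not given in these sources. The number of unmapped per-sample columns was 0.

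Processed signals were divided by the array's 75th percentile, which was 1694 to 4737 intensity units, and log2 was taken. Between 413 and 969 outlier spots per array were dropped and spots of a probe were averaged. A probe passed if it was well above background on 3 or more of the 33 arrays (30537 of 45598), and each gene took its brightest probe. Probe names came from an accession (21173), a symbol (9058), a synonym (406), the file (5247) or the member rule (13), and 9701 had none. The number of arrays limits the precision.

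limma 3.58.1 (R 4.3.3, with version 1.17.8 of data.table) fitted the means of 10 groups with trended, robust variances, and Benjamini-Hochberg adjustment at 0.05 ran over 23150 genes in each of 19 comparisons. The fit was tested on simulated data. Reading and plotting used Python 3.11.15, pandas 2.3.3 and matplotlib 3.10.9. Where no array of a group showed a gene well above background, only a bound is given ("at least N-fold"). For the dim group it takes, on each array, the larger of the probe's own signal and the weakest signal that was well above background. It bounds the difference of the group means measured and is not a confidence limit.

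The members and lists were chosen with earlier results of these data known. Beside the members, the naming rule took the called genes of each list in a comparison described (the 4 with the smallest p where more passed, up to 2 where none passed), and the 5 genes nearest Krt5 and S100a14. Some of these are given as counts only, and a few genes of the lists are not reported here by name. Equal replicate numbers did not pair samples, since the correlation of their deviations ran from −0.445 to 0.458 over 40 pairs, with 12 over 0.1. Slides 1 to 4 held 8 arrays each, and slide 5 held only replicate 4 of EB at PND 145, which a slide block in effect drops. The alternatives tried were no filter, slide and replicate blocks, quantile scaling, normexp background correction (offset 50), the mean of a gene's probes, the values deposited by the authors, only the groups compared, and each array left out. A further 2 were chosen after seeing the data: without the 2 adult control arrays high in seminal vesicle genes, and without the 2 EB arrays high in urothelial genes.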

Additional observations from a re-analysis of the deposited data

Results flagged for a closer look

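In the 3 groups of 4 arrays, 27 pairs of member and group were looked at for an array far from the others, and chance flags about 1 in 20 groups. Tp63 was at 1.62 in replicate 2 of the PND 30 controls, by the variant 3 probe, while the other 3 arrays lay between −0.00 and 0.19. The gap was 0.880 of the group's range, above Dixon's critical value for 4 arrays. S100a14 was at −6.25 in replicate 4 of the PND 30 controls, below the other 3 arrays at −5.46 to −5.32, with a gap of 0.856 of the range. Without those arrays the calls of the PND 30 comparison did not change for any member. No member had a called difference of effects between ages.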

How the results depend on the processing

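In all, 356 log2 differences were recomputed under alternatives other than leaving out 1 array. They include differences within single slides, which have no test and were compared by direction only. Of the 356, 328 kept direction and, where tested, side of the threshold, 22 lost their call, 5 gained one and 1 changed sign. The 356 cover the 32 of 171 pairs of member and comparison with an unadjusted p under 0.05, chosen after the values were seen. S100a14 and Alox12e in EB+T+E at PND 145, against control and against T+E, stayed called wherever tested and kept direction within slides. Their sizes varied. Within-slide values included, the differences from control ranged from 2.03 to 4.08 for S100a14 and from 2.30 to 4.37 for Alox12e. Against T+E they ranged from 1.47 to 3.50 and from 2.94 to 3.77. The sign changed for Alox12e in EB+T+E against EB at PND 100, at 1.23 within slide 4 against −1.48. Groups with no Gjb6 array above background give bounds only. The cause of the changes below was not tested.

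Of the members, 2 were called in EB at PND 145 against control. That count became 0 with normexp, no filter, the slide block, only the groups compared, without the 2 control arrays and without the 2 EB arrays, and 1 with the replicate block, where Alox12e had an adjusted p of 0.0710. In EB+T+E at PND 100 the 1 call became 0 with normexp, no filter, only the groups compared and without the 2 control arrays. Against T+E at that age the 1 call became 0 with normexp, no filter and only the groups compared. In EB+T+E at PND 145 the 3 calls became 5 with only the groups compared. Between control ages (PND 100 against PND 30) 0 became 1 with the slide block and the authors' table, and 2 with only the groups compared. The replicate block changed no other member's call. With the probes of Tp63 averaged, Tp63 in EB+T+E against EB at PND 145 was at −1.12 (adjusted p = 0.00378).

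Counts of all genes called moved more. With normexp they were 76 for EB at PND 30 (11 in the fit reported), 74 for EB at PND 100 (622), 30 for EB at PND 145 (132), 23 for T+E at PND 100 (42) and 1757 for EB+T+E at PND 100 (2923). They were 393 for EB+T+E against T+E (922) and 190 against EB (395) at PND 100. For the effects between ages they were 1 for EB from PND 30 to 100 (5) and 1 for T+E (6). Quantile scaling gave 407 for EB at PND 100, 151 for T+E at PND 145 (89), and 2 and 132 for the differences between ages of EB (PND 30 to 100) and EB+T+E (67). No filter gave 260 for EB at PND 100 and 2 for the T+E difference between ages. The slide block gave 1595 and 32 for EB at PND 100 and 145, 80 for T+E at PND 100, 1572 for EB+T+E over T+E at PND 100, and 19, 20 and 32 for the differences between ages of EB, T+E and EB+T+E. The replicate block gave 367 and 73 for EB at PND 100 and 145, 89 for the PND 145 interaction (178) and 44 for the EB+T+E difference between ages. The mean of probes gave 20 for EB at PND 30, and the values deposited by the authors gave 136 for T+E at PND 145.

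With only the groups compared, the counts were 17, 0 and 0 for EB at PND 30, 100 and 145, 247 and 23 for T+E at PND 100 and 145, and 0 for EB+T+E at PND 100 against control, T+E and EB. They were 2225 for the control ages PND 100 against PND 30 (522), 274 for the PND 145 interaction, and 0 for the differences between ages of EB (PND 30 to 100) and T+E. Without the 2 control arrays they were 47 and 2 for EB at PND 100 and 145, 0 and 53 for T+E, 1623 for EB+T+E at PND 100, 346 and 1 for the control ages, and 55 for the PND 145 interaction. The differences between ages then gave 2, 2 and 7 for EB (PND 30 to 100), T+E and EB+T+E. Without the 2 EB arrays they were 4 for EB and 49 for the PND 145 interaction.

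Leaving out each array in turn gave ranges of members called of 0 to 1 for EB at PND 100, 0 to 1 for EB at PND 145, 0 to 1 for EB+T+E at PND 100, 0 to 2 for EB+T+E over T+E at PND 100, 1 to 3 for EB+T+E against EB at PND 145, 0 to 1 for the interaction at PND 100. The ranges of all genes called were 7 to 519 for EB at PND 30, 7 to 2698 for EB at PND 100, 6 to 221 for EB at PND 145, 0 to 32 for T+E at PND 100, 53 to 176 for T+E at PND 145, 699 to 5707 for EB+T+E at PND 100. They were also 5173 to 8488 for EB+T+E at PND 145, 292 to 438 for controls at PND 100 against PND 30, 0 to 74 for controls at PND 145 against PND 100, 9 to 5516 for EB+T+E over T+E at PND 100, 2338 to 5687 for EB+T+E over T+E at PND 145, 23 to 1174 for EB+T+E against EB at PND 100. Contrasts of further groups gave 2761 to 6011 for EB+T+E against EB at PND 145, 0 to 347 for the interaction at PND 100, 32 to 658 for the PND 145 interaction, 0 to 427 for the difference between ages of EB (PND 100 against PND 30), 0 to 3 for the difference between ages of EB (PND 145 against PND 100), 1 to 12 for the difference between ages of T+E (PND 145 against PND 100), 7 to 281 for the difference between ages of EB+T+E (PND 145 against PND 100). Where 1 array was left out of a group of 3, the spread of the other groups stood for the pair that remained.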

Other observations

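Hormone-responsive genes outside the members were measured in the same prostates. None of Esr1, Esr2, Pgr and Greb1 was called after EB alone or T+E alone. In EB+T+E prostates at PND 145 Greb1, an estrogen-induced growth regulator, rose by 2.31 ± 0.71 (adjusted p = 0.0137). Pgr, the progesterone receptor and a classical estrogen target, rose by at least 1.76-fold (adjusted p = 0.0105). All 10 fibroblast genes rose in that comparison, Postn by 3.84 ± 0.58 (adjusted p = 2.42e-05) and Col3a1 by 3.17 ± 0.53 (adjusted p = 7.38e-05). Of all genes, 14.7% were called higher there. In EB prostates at PND 145, 1 of the 10 rose, where 0.194% of all genes were called higher. Without the 2 control arrays high in seminal vesicle genes, 8 of the 10 calls in EB+T+E prostates at PND 145 remained and the 1 in EB prostates was lost.

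Proliferation genes followed another course. All 8 rose in EB+T+E prostates at PND 100, Mki67 by 3.02 ± 0.58 (adjusted p = 0.00218) and Bub1 by 2.99 ± 0.48 (adjusted p = 7.94e-04). At PND 145 4 of the 8 rose, Mki67 by 1.95 ± 0.58 (adjusted p = 0.0118). Of all genes, 5.4% were called higher in EB+T+E prostates at PND 100 and 14.7% at PND 145. Without replicate 1 of EB+T+E at PND 100, 6 of the 8 were called there, and without the 2 control arrays 2 of the 4 calls at PND 145 remained. None was called after EB alone at any age, with a median of 1.06 at PND 100 and −0.46 at PND 145.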
